A study of Mus musculus with 18 samples.

Results

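The genes of the cytoplasmic ribosomal proteins were followed through all 9 groups of a mouse RNA-seq series on 2 sorted cell populations of the hair follicle, the dermal papilla (DP), a cluster of specialised fibroblasts at the follicle base, and the hair follicle stem cells (HFSC), the epithelial cells from which the follicle regrows. Members were chosen by symbol (Rpl or Rps, a number and an optional further letter and number, not ending in l) together with Rplp0, Rplp1, Rplp2 and Rpsa. This gave 82 of 52958 gene symbols in the DP table and 79 of 27933 in the HFSC table. Of the 82 DP members 79 were annotated as protein coding, and the other 3, Rps12l1, Rps3a2 and Rps3a3, as pseudogenes, which the HFSC table did not list. Rps3a2 and Rps3a3 had too few reads to be tested, which left 80 members in DP and 79 in HFSC.

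A cytoplasmic ribosome has a small 40S subunit, built on Rps proteins, and a large 60S subunit, built on Rpl proteins. Rplp0, Rplp1 and Rplp2 form a stalk on the 60S subunit that recruits elongation factors. Each protein is needed in about equal number, so the genes are known for moving together. Many of their mRNAs begin with a C followed by a run of pyrimidines, the 5′ terminal oligopyrimidine tract, through which mTORC1 signalling controls their translation and storage. In the skin, the rate of protein synthesis is known to be low in resting hair follicle stem cells and higher in their dividing progeny.

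All animals were female. Sham-operated mice (Sham) and adrenalectomised mice (ADX), which lack the main source of corticosterone, were C57BL/6 wild types, and a further HFSC group was adrenalectomised and fed corticosterone (ADX+CORT). In a separate experiment on a 129/C57BL/6 background, mice with Pdgfra-CreER and GR fl/fl (GR_KO) were set against wild-type mice (Control). Both of these groups received tamoxifen intraperitoneally for 6 days, so exposure to the drug itself is shared. Only GR_KO carries the Cre, and an effect of the Cre cannot be told apart from that of the deletion. GR is the glucocorticoid receptor, encoded by Nr3c1, and Pdgfra drives the Cre in dermal fibroblasts rather than in the epithelium. Sham, ADX, Control and GR_KO were measured in both cell populations, and every group had 2 libraries. The title of the series states the question, whether corticosterone inhibits Gas6 and thereby governs the quiescence of the stem cells.

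No label says that the 2 libraries of a group came from separate animals, so p-values measure only the spread between these libraries. The DP libraries held 6194415 to 13941628 counts each and the HFSC libraries 14067139 to 33014976. A tested member had a median of 1316 to 5001.5 reads in a DP library and of 2420 to 7288 in HFSC, and the lowest member still had 82 reads in the poorest library. Levels are given in counts per 1000000 counts of the scaled library (CPM). DP and HFSC were counted by different methods, and levels were not compared between them. The targeted gene followed the labels in DP, where Nr3c1 stood at 671 and 978 CPM in Control and at 137 and 111 in GR_KO. In HFSC, where the Cre is not expected to act, Nr3c1 was at 257 and 338 CPM in Control and 243 and 170.0 in GR_KO. Among marker lists, the first GR_KO DP library had the highest sums for immune cells (2620 CPM, against 35.3 to 343 in the other DP libraries) and skeletal muscle (444 against 21.9 to 52.7 CPM). All 16 DP markers had reads in every DP library, with sums of 5007 and 5207 CPM in GR_KO, 5811 and 8893 in Control and 3853 to 7397 in the others, and all 13 HFSC markers had reads in every HFSC library.

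The start sites of the genes are shown first, because the pyrimidine run is the sequence feature that the family is known for. RefSeq start entries on GRCm38.p6 were at hand for 59 of the 82 members, with 69 starts. The windows run from 10 bases before the annotated start to base 20 of the transcript, 5′ to 3′ on the strand of the gene, and capitals mark the longest run of a C followed by at least 4 further C or T whose first C lies within 10 bases of the start on either side. Only the strand of the gene was searched, and no other motif was sought. Such a run lay near 37 of the 69 member starts (53.6%) and near 30.7% of the 32782 starts of all other genes, which is also its share over all starts. At 13 member starts (18.8%) and 2.47% of the others, the first base was a C followed by at least 4 further C or T. Longer runs that had begun before that base are included. The first 6 windows belong to members described further on that carry such a run.
Rpl27a (chr7:109519185-109519214, + strand): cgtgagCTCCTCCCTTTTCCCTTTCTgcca
Rps6 (chr4:86857348-86857377, − strand): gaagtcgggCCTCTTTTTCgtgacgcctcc
Rplp2 (chr7:141447641-141447670, + strand): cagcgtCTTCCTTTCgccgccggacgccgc
Rps27 (chr3:90213629-90213658, − strand): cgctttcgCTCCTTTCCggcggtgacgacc
Rps15a (chr7:118116128-118116157, − strand): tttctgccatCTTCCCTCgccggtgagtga
Rpl38 (chr11:114668570-114668599, + strand): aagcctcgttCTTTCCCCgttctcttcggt
Windows of members that stood apart from the rest in the results are shown for contrast.
Rpl7l1 (chr17:46782637-46782666, − strand): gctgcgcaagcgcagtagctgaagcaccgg
Rpl4 (chr9:64173377-64173406, + strand): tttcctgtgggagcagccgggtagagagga
Rpl22l1 (chr3:28805498-28805527, + strand): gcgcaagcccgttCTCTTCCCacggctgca
Counted from its first C, the marked run of Rps15a and Rpl38 began at the first base and held 8 pyrimidines each. Rpl27a had 20 in a row from 4 bases before the start. Rpl7l1 and Rpl4 had no such run, and the marked run of Rpl22l1 held 8 from base 4 of the transcript. In Rps15a, Rpl38 and Rpl22l1 a T stood directly before the marked run, so the stretch of pyrimidines began earlier. Rps13, Rps16, Rpl41 and Rpl37a, which moved with the family in the results further on, had no such run either. A match in these letters is a description of the annotated start, not of the start used in these cells.

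The family as a whole took the largest share of the library in Control among the DP groups and in ADX among the HFSC groups. In DP, ribosomal protein genes made up 1.58% and 1.65% of the counts in Sham, 2.14% and 2.26% in ADX, 2.82% and 3.81% in Control, and 0.893% and 1.45% in GR_KO. The 95% binomial intervals of these shares (exact, Clopper-Pearson) were narrow beside the gaps between libraries, for example 2.81% to 2.83% for the first Control library. They cover counting error only, because the reads carry no molecular identifiers and are not independent molecules. In HFSC the shares were 1.92% and 2.10% in Sham, 4.26% and 3.12% in ADX, 1.68% and 2.12% in ADX+CORT, 2.33% and 2.65% in Control, and 2.54% and 2.76% in GR_KO. The 2 libraries of Sham and ADX+CORT overlapped, as did those of Control and GR_KO, while both ADX libraries lay above all other HFSC libraries. With 2 libraries a group an exact permutation test of such a share cannot go below p = 0.333. In sorted bulk samples, a lower level cannot be told apart from fewer cells of a type that expresses the gene.

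**Figure D1:**
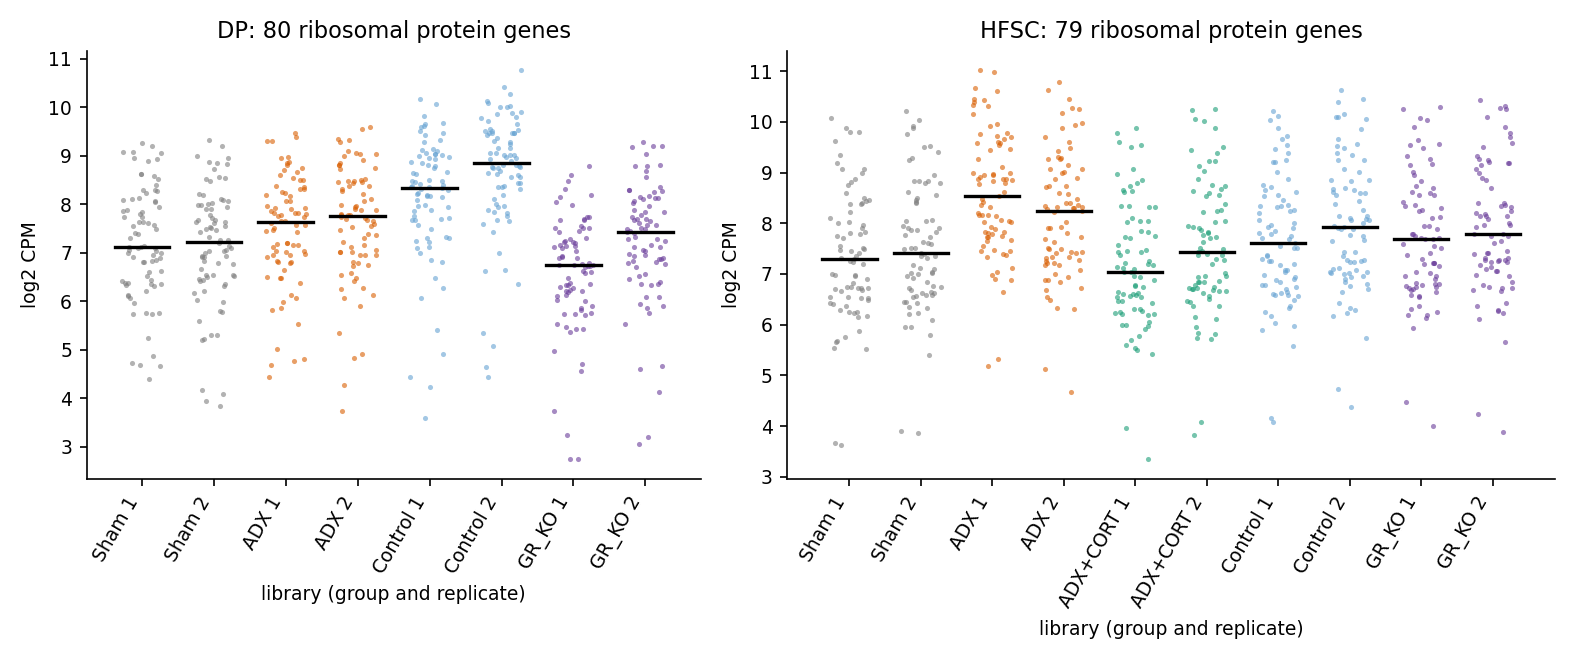
Level of each tested ribosomal protein gene (log2 CPM, 1 point per gene) in every library, with the median of the library as a black bar. The medians are highest in both Control libraries in DP (324 and 465 CPM) and in both ADX libraries in HFSC (374 and 303 CPM).

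The levels of single members were compared in the same way. The median over members of the group's mean level was 151 CPM in Sham, 212 in ADX, 399 in Control and 137 in GR_KO in DP, so the GR_KO group lay near the Sham group and Control stood apart. Both Control libraries were above all 6 other DP libraries for 68 of 80 members, beside 6.97% of all genes tested. The 12 exceptions, named here after their values were seen, were Rpl3, Rpl5, Rpl7l1, Rpl9, Rpl10, Rpl12, Rpl23, Rpl27, Rpl30, Rpl34, Rps3 and Rps12. Both GR_KO libraries were below all others for 27 members, beside 6.46% of all genes. In HFSC the medians were 168 CPM in Sham, 345 in ADX, 152 in ADX+CORT, 231 in Control and 214 in GR_KO, and both ADX libraries were above all 8 others for 58 of 79 members, beside 5.96% of all genes. Control differs from Sham in strain background and tamoxifen, so an effect of either cannot be told apart from one of the experiment, and these groups were not tested against each other. The ratio of summed 40S to summed 60S levels stayed within 0.783 to 0.878 over the DP libraries and 0.867 to 0.980 over the HFSC libraries.

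Per kilobase of transcript, high Sham levels in DP were those of Rps19 (746 CPM per kb) and Rps14 (646), and the lowest were those of Rpl5 (12.01), Rpl12 (15.9) and Rps12 (25.1). In Sham HFSC, with length taken over all exons of the gene, Rpl8 (803 CPM per kb) and Rpl4 (793) were among the highest and Rpl22l1 (6.88), Rps15a (9.497) and Rpl23a (16.1) the lowest. The mouse genome holds many processed pseudogenes of this family, and the words that members share with other transcripts were counted. All 82 members shared 31-base words with annotated transcripts of other genes, over a median of 46.5% of their words and up to 100% (Rps12l1). Rpl5 shared 86.4% and Rpl23a 89.8%, whereas Rps15a, Rpl8 and Rpl7l1 shared 7.29%, 8.05% and 17.8%. The 7.29% of Rps15a are 439 of 6021 words over all its coding transcripts. Its HFSC level is divided by exons that total 6270 bases. In Sham DP, with 1023 bases, the level was 79.5 CPM per kb. The part of shared words in the levels was not tested. Levels of members with many shared words are uncertain, and medians are also given further on for both sides of that 46.5%.

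In DP, deletion of the receptor went with lower levels of nearly the whole family. Of 80 members, 40 fell in GR_KO against Control and none rose (edgeR quasi-likelihood test, adjusted p under 0.05 over all genes tested), where 0.771% of all genes tested fell and 0.767% rose. The fold change was below 0 for 79 members, beside 43.6% of all genes, and the GR_KO libraries lay entirely below the Control libraries for 78, beside 20% of all genes. The median log2 fold change was −1.53, a 2.88-fold lower level, with the middle of the members between −1.68 and −1.40 and a median over all genes of 0.17. By subunit, 20 of 43 members of the 60S subunit, 18 of 31 of the 40S subunit, 2 of 3 stalk proteins and 0 of 3 paralog or pseudogene members fell, and their medians were −1.51, −1.57, −1.63 and −0.56. Lower at an unadjusted p under 0.05 were 73 members, beside 5.57% of all genes, and DESeq2 called 73, beside 3.21%. All calls were lost without the second Control library or without the first GR_KO library, where the medians were −1.43 and −1.21. The number called also depended on the second ADX library. None was called when only these 2 groups entered the fit, and 1, Rps15a, once GC and length trends were removed by an offset, where the median was −1.08.

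Among 40S members, Rps15a (chr7:118104372-118116188 on GRCm38) had the smallest p. Its level was 158 and 259 CPM in Control and 54.2 and 54.1 CPM in GR_KO, against 83.4 and 79.3 in Sham and 111 and 133 in ADX. Both GR_KO libraries were thus the lowest of the 8 and both Control libraries the highest, and Rps15a fell by 1.94 (SE 0.30, adjusted p = 0.0238, edgeR). Rps13 stood at 251 and 401 CPM in Control and 98.2 and 84.4 in GR_KO and fell by 1.83 (adjusted p = 0.0312). Rps16, Rps21 and Rps9, also parts of the small subunit, fell by 1.83, 1.97 and 1.68. Rps6, the 40S protein that S6 kinases phosphorylate, was at 556 and 738 CPM in Control and at 175 and 279 in GR_KO, where the second GR_KO library lay close to Sham (272 and 272 CPM), and it fell by 1.51 (adjusted p = 0.0437). Rps27, a zinc-finger protein of the small subunit, fell by 1.86 (adjusted p = 0.0429). Rpsa, which also serves as a laminin receptor, missed the threshold with a log2 fold change of −1.41 (adjusted p = 0.0511), as did Rps27a, made as a fusion with ubiquitin (−1.40, adjusted p = 0.0652).

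Among 60S members Rpl27a, Rpl8 and Rpl31 fell by 1.78, 1.65 and 1.63, and Rpl41, the shortest of the proteins, fell by 1.45 (adjusted p = 0.0431). Rpl10, which joins the 60S subunit late in its assembly, had a log2 fold change of −1.47 (adjusted p = 0.0701). In the stalk, Rplp2 was at 293 and 388 CPM in Control and 77.6 and 126 in GR_KO. It fell by 1.74 (adjusted p = 0.0373) and Rplp1 by 1.63 (adjusted p = 0.0435). Rplp0, the anchor of the stalk and a common reference gene in quantitative PCR, went from 1073 and 1380 CPM in Control to 389 and 578 in GR_KO without overlap and narrowly missed the threshold (−1.34, adjusted p = 0.0553).

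A few members did not share the shift. Rpl7l1 (chr17:46773907-46782672), a paralog of Rpl7 that acts in assembly of the large subunit, was the only member above 0. Its level was 77.5 and 100.1 CPM in Control and 118 and 113 in GR_KO, a log2 fold change of 0.38 that did not pass the test (SE 0.30, adjusted p = 0.616). Rpl22l1 and Rpl22 are a pair of paralogs that can replace each other in the 60S subunit. Rpl22 had a log2 fold change of −1.53 (adjusted p = 0.0556) and Rpl22l1 of −0.56 (adjusted p = 0.464). Rpl3, a core protein near the peptidyl transferase centre, stood at 509.6 and 625 CPM in Control and at 205 and 587 in GR_KO, so its groups overlapped (−0.52, adjusted p = 0.655). Without the first GR_KO library its log2 fold change was 0.06. Rpl27 (−0.56, adjusted p = 0.506) and Rpl4, singled out after its values were seen (−0.61, adjusted p = 0.330), also lay more than 2 SE above the median of the family, as did Rpl3, Rpl22l1 and Rpl7l1. The other 75 members were within 2 SE of it, and their spread (SD 0.36 over all 80 members) was close to the median SE of a single member (0.32). The pseudogene Rps12l1, whose words are all shared with other transcripts, had a value of −1.96 (SE 0.58, adjusted p = 0.135).

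**Figure D2:**
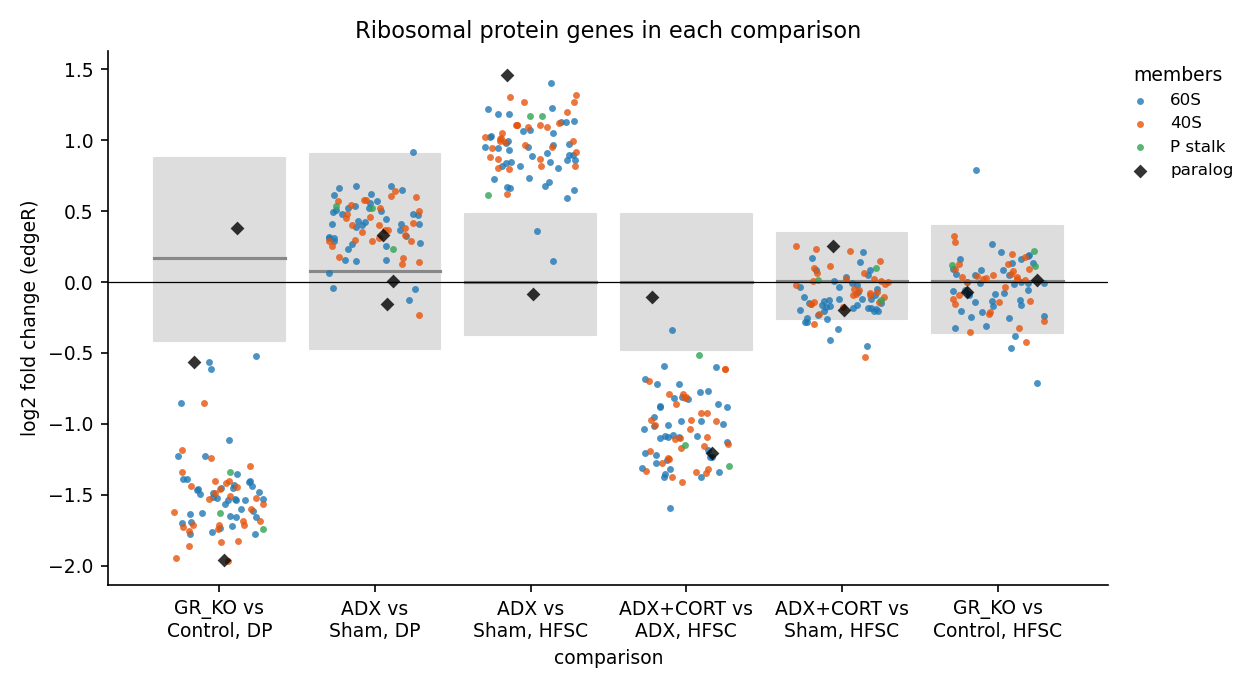
Log2 fold change of each tested member in the 6 comparisons, coloured by subunit, with black diamonds for paralogs. The grey band is the middle 50% of all genes tested and the grey line their median. The members sit together near −1.53 in GR_KO DP, 0.97 in ADX HFSC and −1.08 in ADX+CORT against ADX, and around 0 in ADX+CORT against Sham and in GR_KO HFSC.

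Adrenalectomy in DP gave no call among the 80 members (edgeR adjusted p under 0.05, with 0.017% of all genes called in either direction; DESeq2 0). At an unadjusted p under 0.05 there were 3 members higher, Rpl39, Rpl38 and Rpl41, beside 4.18% of all genes, and none lower. The fold change was above 0 for 75, beside 53.5% of all genes, and for 66 the ADX libraries lay above the Sham libraries without overlap, beside 23.9% of all genes. The median was 0.40 against 0.08 over all genes. Rpl39, one of the smallest 60S proteins, stood at 54.4 and 48.2 CPM in Sham and at 101 and 92.8 in ADX (log2 fold change 0.92, SE 0.34, adjusted p = 0.345), and Rpl41 at 199 and 181 against 299 and 298 CPM (0.65, adjusted p = 0.407). Rps6 lay the other way, with 272 and 272 CPM in Sham and 226 and 237 in ADX (−0.23, adjusted p = 0.785), and was the only member more than 2 SE from the median of the family. Rpl7l1 and Rpl4 were at −0.16 and −0.13 with overlapping libraries. The median SE of a member was 0.32, close to the size of the family's shift. The 9 markers of pericytes and smooth muscle moved with this comparison, with sums of 354.03 and 432 CPM in Sham and 5846 and 1009 in ADX, and the 12 markers of differentiated epidermis stood at 1244 and 4673 CPM against 562 and 317. Their part in the values above was not tested.

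The difference between both experiments was tested in DP, the effect of GR_KO minus that of ADX. It was −2.53 for Rps15a (SE 0.41, adjusted p = 0.0402, edgeR), the only member called, where 0.128% of all genes were called lower. The median over members was −1.94, with 73 lower at an unadjusted p under 0.05, beside 4.69% of all genes, and 71 called by DESeq2, beside 2.13%. The call of Rps15a was lost without either Sham library, without the second ADX library, without the second Control library, without either GR_KO library, and with the same offset. Without the second GR_KO library other members were called, and the share of all genes called there is not given.

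In HFSC, adrenalectomy gave higher levels across the family that did not pass the adjusted threshold. None of the 79 members was called in ADX against Sham (edgeR, with 0.295% of all genes called), the smallest adjusted p being 0.0545. Higher at an unadjusted p under 0.05 were 76 of 79, beside 9.01% of all genes, and DESeq2 called 66 as higher, beside 3.49%. The ADX libraries lay above the Sham libraries without overlap for 78 members, beside 25.5% of all genes. The median log2 fold change was 0.97, a 1.96-fold higher level, against 0.00 over all genes, and the subunits were alike, with 0.91 for the 60S, 1.01 for the 40S and 1.17 for the stalk members. The first ADX library was the further of both from Sham. Without it the median was 0.73, and without the second ADX library it was 1.15. The number of members called depended on the library left out, also among ADX+CORT and GR_KO, groups that only share the estimate of the spread.

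Rps15a again had the smallest p. It stood at 51.2 and 67.9 CPM in Sham and at 176 and 118 in ADX (log2 fold change 1.31, SE 0.25, adjusted p = 0.0545). Rps26 went from 160.0 and 171 CPM to 458 and 338 (1.27, adjusted p = 0.0545), and Rpl37a, a zinc-binding 60S protein, from 222 and 234 to 779.6 and 428 CPM (1.41, adjusted p = 0.0568). In each of these the second ADX library lay closer to Sham than the first but well clear of it. In the stalk, Rplp1 and Rplp2 had values of 1.17 each (adjusted p = 0.0863 and 0.095) and Rplp0 of 0.61 (adjusted p = 0.243). Of the paralogs, Rpl22l1 had the highest log2 fold change of the family, from 12.4 and 15.0 CPM in Sham to 40.2 and 35.0 in ADX (1.46, adjusted p = 0.0701), above that of Rpl22 (0.68, adjusted p = 0.15). Rpl7l1 did not follow, with 113 and 138 CPM in Sham and 119 and 117 in ADX (−0.09, adjusted p = 0.911). Rpl4 (0.15, adjusted p = 0.811) and Rpl13 (0.36, adjusted p = 0.495) were the other members more than 2 SE below the median.

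**Figure D3:**
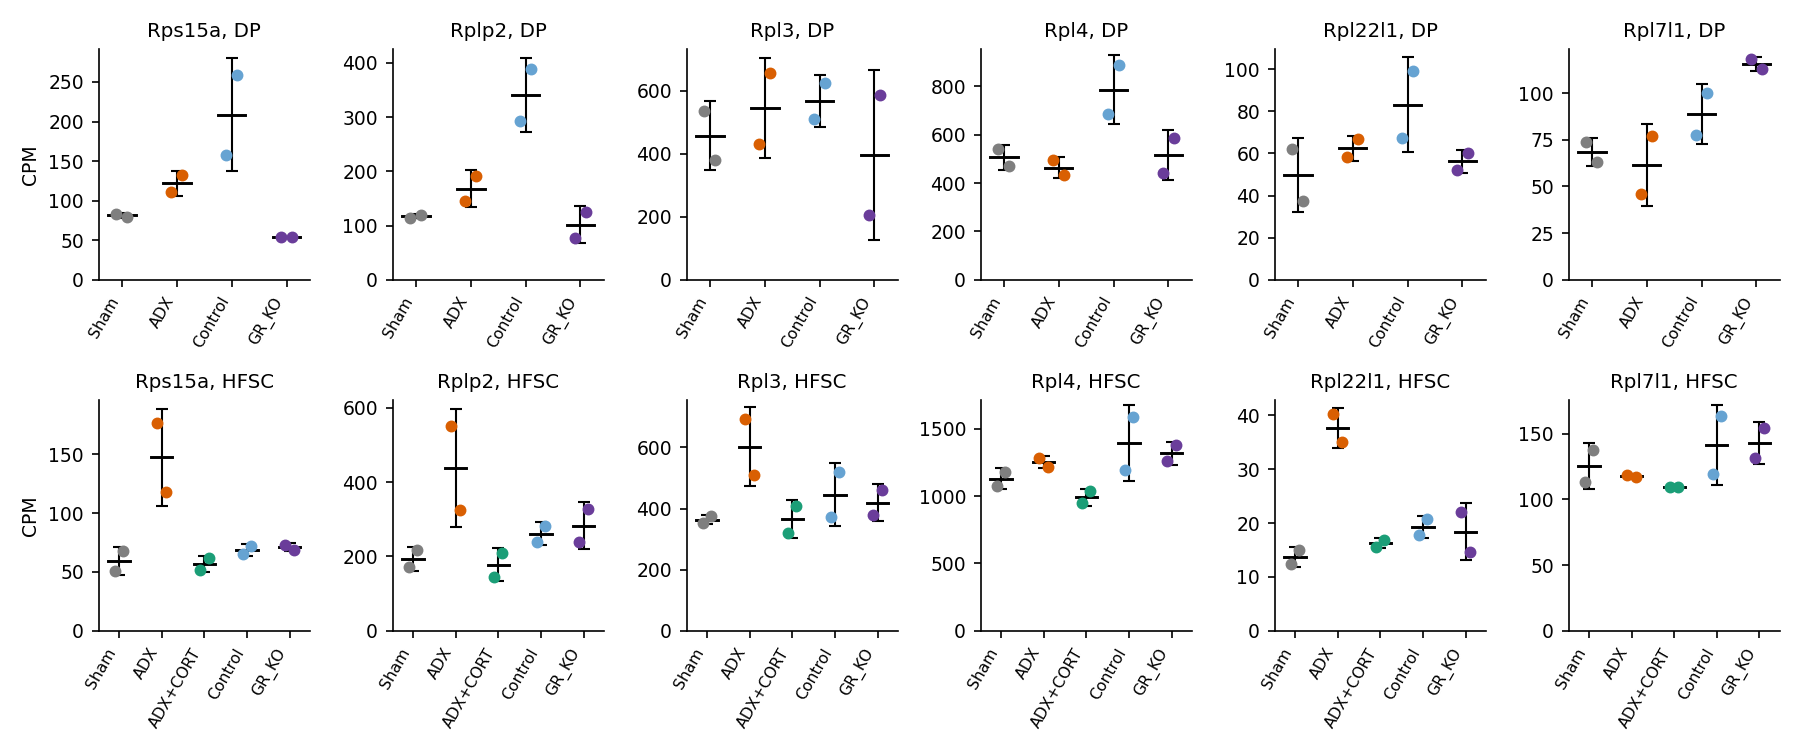
Level (CPM) of 6 members in the DP libraries (upper row) and HFSC libraries (lower row), with 1 point per library, a bar for the mean and error bars of 1 SD (n = 2). Rps15a and Rplp2 are highest in Control in DP and in ADX in HFSC, while Rpl7l1 is highest in GR_KO in DP and shows no rise with ADX in HFSC.

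Corticosterone feeding after adrenalectomy went with levels near those of Sham. Against ADX none of the 79 members was called (edgeR, 0% of all genes called), the smallest adjusted p being 0.0573, a value that several members shared. At an unadjusted p under 0.05, 76 members were lower, beside 9.53% of all genes, DESeq2 called 74, beside 4.67%, and all 79 lay below the ADX libraries without overlap, beside 25.8%. The median log2 fold change was −1.08, a 2.12-fold lower level. Rps15a was at 51.8 and 61.6 CPM in ADX+CORT (−1.38, SE 0.25, adjusted p = 0.0573) and Rpl37a at 178 and 223 (−1.59, SE 0.28, adjusted p = 0.0573). Rpl22l1 was at 15.7 and 16.9 CPM (−1.21, adjusted p = 0.07). The smallest differences were those of Rpl7l1 (−0.11), Rpl4 (−0.34) and Rplp0 (−0.51). Without the first ADX library the median was −0.81. The number of members called depended on the library left out, also among those of Control and GR_KO.

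Against Sham, none of the 79 members was called in ADX+CORT (edgeR, 0% of all genes called), none had an unadjusted p under 0.05, beside 4.33% of all genes higher and 1.75% lower, and DESeq2 called none. The median was −0.09, with 24 members above and 55 below 0, beside 47.7% of all genes below, and the range ran from −0.53 (Rps15, adjusted p = 0.838) to 0.26 (Rps3a1, adjusted p = 0.928). The median SE of a member was 0.25. The median over members depended on the libraries taken, from −0.32 without the second ADX+CORT library to 0.10 without the first. These 3 HFSC comparisons share libraries (each of Sham, ADX and ADX+CORT enters 2 of them), so their values are given side by side and are not independent of each other.

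In HFSC, with GR deleted in dermal cells, the family showed no shift to either side. None of 79 members was called (edgeR, with 0.985% of all genes called; DESeq2 0), 39 lay above and 40 below 0, beside 49.3% of all genes below, and the median was 0.00. An unadjusted p under 0.05 was seen for 1 member higher and 1 lower, beside 7% and 6.12% of all genes. Rpl29 was at 47.7 and 86.5 CPM in Control and 94.8 and 137 in GR_KO (0.79, SE 0.33, adjusted p = 0.326), and Rpl34 at 224 and 267 against 105 and 194 CPM (−0.71, SE 0.30, adjusted p = 0.332). The list of genes of the G2 and M phases of the cell cycle did rise in this comparison, with 9 of 16 called and a median of 2.97, while the ribosomal protein genes had a median of 0.00. In ADX against Sham the same list had a median of 2.20 with 2 of 16 called, beside 0.295% of all genes. The test of GR_KO minus ADX effect in HFSC called none of the 79 members (edgeR, 0% of all genes), with 62 lower at an unadjusted p under 0.05, beside 6.41% of all genes, 24 called by DESeq2, beside 0.657%, and a median of −0.96.

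Other measures moved with these groups. In DP, the summed level of 10 dermal fibroblast genes was 64906 and 75331 CPM in GR_KO and 24622 and 15484 in Control. Of the 10, 2 rose (edgeR), beside 0.767% of all genes. The G2 and M sum in DP was 243 and 138 CPM in GR_KO against 48.7 and 21.7 in Control, and 247 and 88.2 in ADX against 34.0 and 56.4 in Sham. The 13 stem cell markers summed to 1711 and 1354 CPM in GR_KO DP against 891 and 519 in Control DP. Mitochondrially encoded genes took 2.45% and 1.95% of the DP counts in Sham, 3.01% and 3.01% in ADX, 3.62% and 2.89% in Control and 1.73% and 2.22% in GR_KO, so on both measures the GR_KO and Control libraries did not overlap. The high immune sum was seen in the first GR_KO library, while the second had a sum of 35.3 CPM, with Cd3e, Cd3g and Trdc at 0. In HFSC, the sum of 13 stem cell markers was 21981 and 32953 CPM in ADX, 23650 and 35812 in GR_KO, and 41884 to 55677 in the other groups. The G2 and M sum was 1259 and 478 CPM in ADX and 995 and 2115 in GR_KO, against 124 to 307 elsewhere. The 12 markers of differentiated epidermis summed to 8543 and 9373 CPM in ADX against 4837 and 6987 in Sham. In ADX+CORT their sums were 8384 and 10781 CPM, in Control 5098 and 7526, and in GR_KO 13362 and 11958. The 11 immune markers summed to 2484 and 2300 CPM in Control HFSC and 2333 and 2781 in GR_KO HFSC. In the HFSC libraries of Sham, ADX and ADX+CORT they summed to 51.6 to 170 CPM. The part of these measures in the results on ribosomal protein genes was not tested.

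The members' changes were compared across comparisons that share no library. Over 79 members, the log2 fold change in GR_KO DP and that in ADX HFSC had a Pearson r of −0.48 and a Spearman rho of −0.36, and over the same genes ADX DP and ADX HFSC had an r of 0.54 and a rho of 0.46. Members that were lower in one tended to be higher in the other in the first pair. These points share their length, base composition and copies, and no p is given.

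Members are short, and length moved with the result in other genes too. The median length was 728 bases over members and 2339 over other genes tested in DP, and 1631 and 3737 in HFSC, where all exons count. GC content was 51.7% and 48.3% in DP, and 51.8% and 51.01% in HFSC. Among other genes with a mean of at least 20 CPM, the shortest of 10 equal bins of length had a median log2 fold change of −0.56 in GR_KO against Control in DP, where the 69 members in that range of lengths had −1.53. In HFSC the shortest bin had 0.47 in ADX against Sham and −0.57 in ADX+CORT against ADX, where the 39 members of that range had 1.03 and −1.15. Members thus lay beyond the other short genes in the same direction in each of the 3. In the longest bin the medians were 0.27, −0.12 and 0.02. Over the members, log length and log2 fold change had an r of 0.48 in GR_KO DP, −0.33 in ADX DP, −0.32 in ADX HFSC and 0.37 in ADX+CORT against ADX. The Spearman rho was 0.31, −0.25, −0.37 and 0.39 in that order, so shorter members tended to lie further from 0. In DP the longest member was Rpl7l1, with 2606 bases, which was also the only member above 0 in GR_KO. An offset for GC content and length brought the medians to −1.08, 0.75 and −0.73. What share of the shift belongs to length was not tested.

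**Figure D4:**
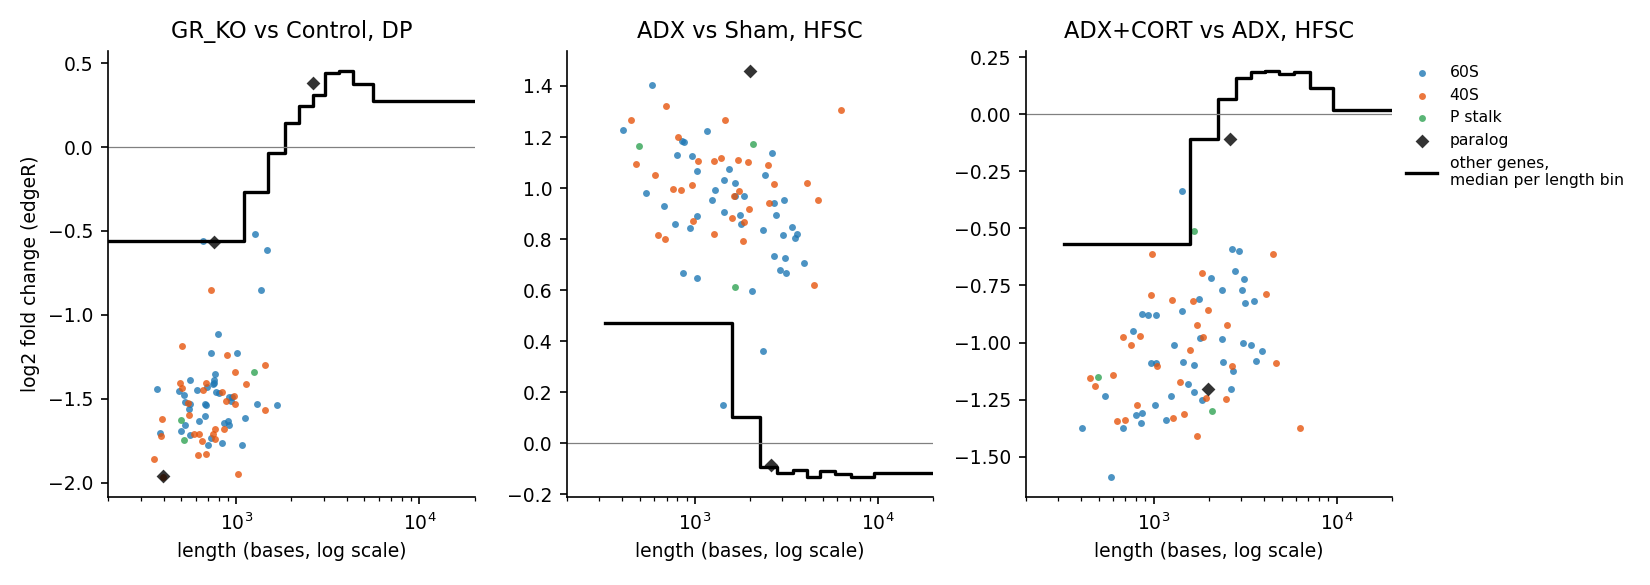
Log2 fold change of each member against its length in bases (log axis) in 3 comparisons, with a black line for the median of other genes with at least 20 CPM in 10 bins of length. The members lie below that line in GR_KO DP and ADX+CORT against ADX and above it in ADX HFSC, apart from Rpl7l1 and a few others.

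Medians were also taken by copies and by start sequence. In GR_KO DP the 41 members with fewer shared words had a median of −1.56 and the 39 with more had −1.51, in ADX HFSC the values were 0.99 and 0.93, and in ADX+CORT against ADX −1.01 and −1.08. The 35 members with a pyrimidine run near an annotated start had medians of −1.53, 0.98 and −1.09 in these comparisons, and the 24 with an entry but no run −1.44, 0.88 and −0.99. In ADX DP the medians were 0.45 with a run and 0.33 without, and for the DP difference −2.02 and −1.79. Members with a run were further from 0 in each of these, but not in ADX+CORT against Sham (−0.09 with and −0.12 without). Whether these sets differ was not tested.

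The DP files also list transcripts, and their make-up differed between groups. Transcripts annotated as retaining an intron took 5.04% and 4.88% of the family's counts in Sham, 4.22% and 4.10% in ADX, 3.76% and 3.898% in Control and 5.14% and 5.30% in GR_KO, the reverse of the order of the levels. Of 62 members with such transcripts, the share was higher in GR_KO than in Control without overlap for 42 and lower for 5. Among 5042 other genes with such transcripts and a mean of at least 20 CPM it was higher for 39.3% and lower for 10.6%, so a shift to higher shares was seen outside the family too. In ADX against Sham it was higher for 6 members and lower for 23, beside 23.5% and 11.5% of the other genes. For Rpl22l1 these transcripts took 5.47% and 5.50% in Control, 32.6% and 28.3% in GR_KO, and 34.2% and 18.0% in Sham. The shares are estimates of Salmon, which divides reads among transcripts, and no test was run on them.

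Genes around the ribosome moved with the family to different degrees. Fau, whose product releases the 40S protein S30, fell by 1.82 in GR_KO DP (adjusted p = 0.0312). The edgeR calls in the lists that follow stand beside the 0.771% of all genes that fell in this comparison. Of 40 translation factors 3 fell, Rack1, a scaffold on the 40S subunit, by 1.55 (adjusted p = 0.0448), Tpt1, the translationally controlled tumour protein, by 1.63 (adjusted p = 0.0465), and Eif3f by 1.34 (adjusted p = 0.0485), and the median of the list was −0.54. Of 60 ribosome biogenesis genes, which build the subunits in the nucleolus, edgeR called none, and the median was 0.06. At an unadjusted p under 0.05 (edgeR), 4 were lower, beside 5.57% of all genes, and 2 higher. DESeq2 called 2 lower, beside 3.21%, and both counts of lower genes are near those shares. In the mTORC1 list 1 of 32 fell, Eif4ebp1, a repressor of the cap-binding factor that mTORC1 phosphorylates, by 1.84 (adjusted p = 0.0212), with a list median of 0.12. Of 78 mitochondrial ribosome genes 1 fell and of 74 respiratory chain genes 2 fell, with medians of −0.56 and −0.67, and 1 of 78 is near the share over all genes. In ADX HFSC no gene of these 5 lists was called by edgeR. At an unadjusted p under 0.05, 13 of 39 translation factors, 6 of 57 biogenesis genes, 6 of 29 mTORC1 genes, 31 of 76 mitochondrial ribosome genes and 48 of 73 respiratory chain genes were higher, beside 9.01% of all genes, and the biogenesis count is near that share. DESeq2 called 6, 3, 3, 7 and 21 of them higher, beside 3.49% of all genes. The medians there were 0.56 for the mitochondrial ribosome, 0.64 for the respiratory chain, 0.27 for translation factors, −0.02 for biogenesis and −0.04 for mTORC1.

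**Figure D5:**
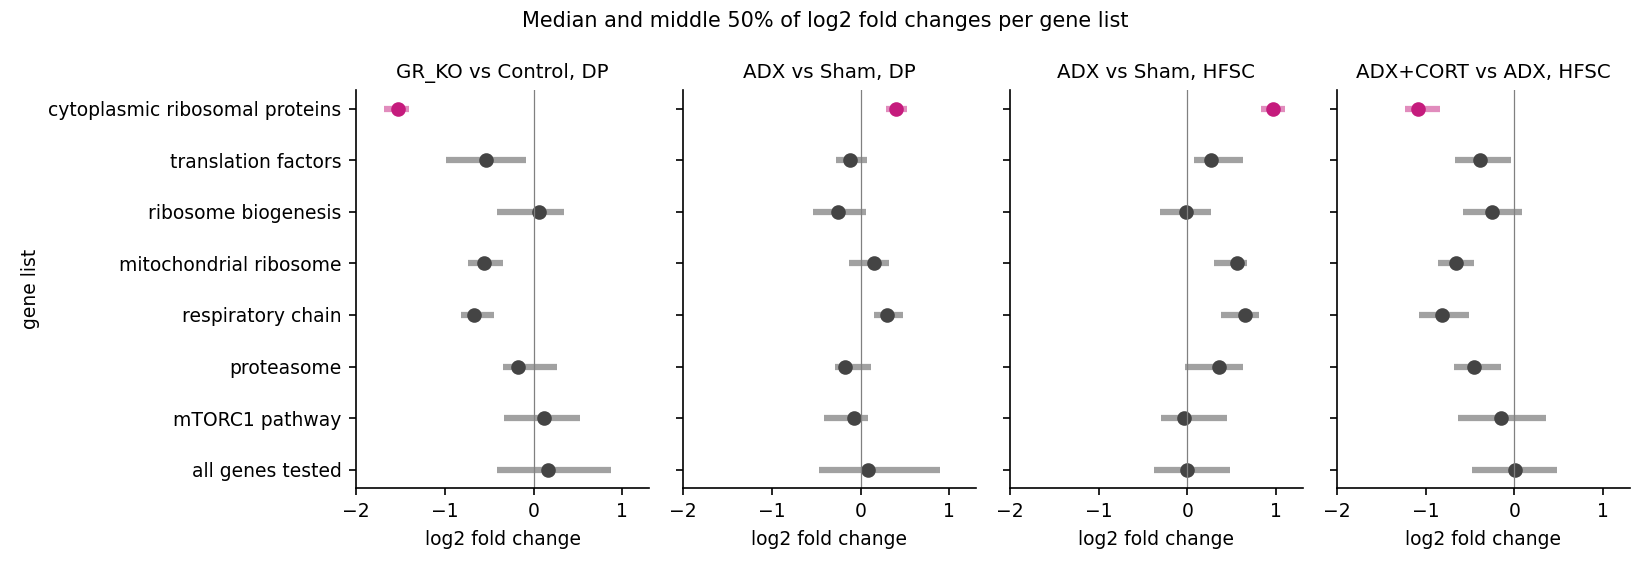
Median (point) and middle 50% (bar) of the log2 fold changes of 7 gene lists and of all genes tested in 4 comparisons. The cytoplasmic ribosomal protein genes have the narrowest bar and lie furthest from 0 in each panel, and the respiratory chain and mitochondrial ribosome lie on the same side of 0 with smaller medians (−0.67 and −0.56 in GR_KO DP).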

How the data were processed

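RNA of FACS-purified cells was made into cDNA with SMART-Seq v4 and into libraries with Nextera XT, which does not mark strand, per the labels' protocols, and only RNA with an integrity number of at least 8 was used. For DP the authors deposited expected counts for each transcript. The submitters' processing notes name Salmon and the build mm10. The counts were summed to symbols through GENCODE M21 and rounded, and 150 of 134967 transcripts without a match held at most 0.0752% of a library. For HFSC the authors deposited raw counts per gene, which featureCounts 1.6.1 made from exons, ignoring strand and dropping reads mapped with a quality under 30, per the file headers. The notes also name Trim Galore 0.4.1, STAR 2.5.3 and DESeq2 1.22.2. In 2 HFSC files 27 names that had become dates were restored from their coordinates.

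DP and HFSC were modelled apart, each over all of its groups (edgeR 4.0.16, R 4.3.3, TMM scaling, filterByExpr, quasi-likelihood test, Benjamini-Hochberg over the 23463 DP or 15231 HFSC genes tested, threshold 0.05). CPM used scaled library sizes. The SE of a log2 fold change was derived from the test, as its absolute value divided by the square root of the F statistic. The steps were tested on simulated counts. Shared 31-base words were sought on both strands of GENCODE M21 transcripts of other genes. Pyrimidine runs were sought on the strand of the gene, with their first C within 10 bases of a RefSeq start. Lists, members and tests were chosen with earlier results of these data known. Members were named by a fixed rule: up to 8 called per direction with the smallest p, at least 5 CPM and no overlap (the 4 smallest p where fewer than 4 passed), the 3 highest and 3 lowest, and a fixed set of 12. Of other lists, the 3 smallest p were eligible. Alternatives were DESeq2 1.42.0, other scalings, filters, fits and thresholds, offsets for GC content and length (spline with 4 degrees of freedom), and leaving out each library.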

Additional observations from a re-analysis of the deposited data

Results flagged for a closer look

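The response of Rps15a in DP differed between the experiments in a test of the difference itself. The GR_KO effect minus the ADX effect was −2.53 on the log2 scale (SE 0.41, adjusted p = 0.0402, edgeR quasi-likelihood test), from −1.94 for GR_KO against Control and a higher level in both ADX libraries (111 and 133 CPM) than in both Sham libraries (83.4 and 79.3 CPM). Over the alternatives the difference ran from −2.997 to −2.04. The call was lost in 6 of the 8 fits that left out 1 library, with adjusted p up to 0.157, and in 2 of 7 other settings, the GC and length offset with and without the replicate block. Over all of these the adjusted p ran from 9.08e-07 to 0.157. Both experiments also differ in strain background and tamoxifen, and their part in the difference cannot be told apart from that of the treatment.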

How the results depend on the processing

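The direction of the family's median held under every alternative run in GR_KO DP, ADX DP, ADX HFSC and ADX+CORT against ADX, while the number of members called did not. The cause of the changes below was not tested. Apart from DESeq2, the share of all genes called in these fits is not given. Such counts show only how far the calls depend on the processing. In GR_KO DP, against 40 called, DESeq2 called 73, no filter on low counts 72, protein-coding genes only 69, a threshold of 0.1 68, a replicate block 63, median-of-ratios scaling 61, the GC and length offset 1, that offset with the replicate block 2, and a fit of only these groups 0, and leaving out 1 library gave 0 to 67. The median was −1.08 with the offset and −1.09 with offset and block. For the DP difference, against 1 called, the counts in the order DESeq2, no filter, threshold of 0.1, replicate block and median-of-ratios were 71, 71, 59, 18 and 9, the offset with or without the block gave 0, and leaving out 1 library gave 0 to 21. In ADX HFSC, against 0 called, DESeq2 called 66, no filter 65, a threshold of 0.1 35, protein-coding genes only 7 and a fit of only these groups 2, and leaving out 1 library gave 0 to 28. Its median was 0.75 with the offset, 0.76 with the block added, and 0.73 to 1.15 without 1 library. In ADX+CORT against ADX, against 0 called, DESeq2 called 74, no filter 66, a threshold of 0.1 65 and protein-coding genes only 27, and leaving out 1 library gave 0 to 49. Its median was −0.73 with the offset, −0.74 with the block added, and −1.31 to −0.81 without 1 library. ADX+CORT against Sham ran from −0.32 to 0.10 without 1 library, and the HFSC difference had 24 calls by DESeq2 and 8 without a filter. The ADX DP median was 0.55 with protein-coding genes only. The mean DP shares with pseudogenes counted were 1.74% in Sham and 2.39% in ADX, and over coding genes without mitochondrial ones 1.79% and 2.61%.

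Signs turned for members near 0. Rpl7l1 in ADX DP was 0.0021 with the offset and ran from −0.52 to 0.10 without 1 library, and in ADX HFSC from −0.22 to 0.062. Rpl4 in ADX DP was 0.027 with protein-coding genes only and ran from −0.29 to 0.018 without 1 library. With the offset Rpl4 was −0.20 in ADX HFSC and 0.13 in ADX+CORT against ADX, and the same with the block added. Rpl3 in GR_KO DP ran from −1.45 to 0.056 without 1 library. Median-of-ratios scaling moved the median of all genes in GR_KO DP from 0.17 to 0.07. Replicate numbers are shared only as numbers. The deviations of same-numbered libraries correlated at −0.148 to 0.22 over the comparisons, and the replicate block changed no call beyond the counts given for GR_KO DP and the DP difference. With 2 libraries a group, the lone library left by leaving 1 out is assumed to vary like the other groups.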
